A study of Mus musculus with 4 samples.

Results

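The Pax, Lhx, sine oculis-related, Dlx, Irx and Nkx genes form 6 families of homeobox genes outside the Hox clusters. All rows of the deposited expression tables whose gene symbol was a family name followed by a number (for Nkx, 2 numbers joined by a hyphen) were taken, whatever their values. This gave 48 genes of the 22492 in the tables: 13 Nkx, 9 Pax, 8 Lhx, 6 Dlx, 6 Irx and 6 sine oculis-related genes, the last including Six2 to Six5. They were described in mouse E14Tg2a embryonic stem (ES) cells, an established line, as unmodified cells (WT) and as cells in which Tet1, Tet2 and Tet3 had been mutated with CRISPR (TetTKO). The Tet enzymes oxidise 5-methylcytosine, the first step of active DNA demethylation. Per the labels, TetTKO was a clone picked after transfection with mixed guide RNA vectors, and both lines were moved from 2i medium, which holds inhibitors of MEK and GSK3, into medium with 15% serum and 1000 units/ml LIF for at least 17 days. Each genotype had 1 whole-genome bisulfite library and 1 RNA-seq library. Every difference below is therefore between a pair of libraries, has no replicate check and carries no p-value, and an effect of the genotype cannot be told apart from a trait of that clone.

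These genes encode transcription factors that bind DNA through a homeodomain and are switched on in restricted territories of the embryo, where they help to set organ and neuron identity. Pax proteins add a paired domain (some Pax members keep only a partial homeodomain or none), Lhx proteins carry LIM domains that bind cofactors, sine oculis-related proteins can act with Eya coactivators, Irx proteins belong to the TALE class, and several Nkx proteins are repressors that recruit Groucho corepressors. In ES cells their promoters are typically CpG-rich, little methylated and bound by Polycomb complexes, and most of the genes are silent. Bisulfite sequencing reads 5-methylcytosine and its Tet product 5-hydroxymethylcytosine alike, so "methylation" below is their sum.

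The promoter sequences of 4 members are shown first, because these genes had the largest end difference (Nkx2-1), the largest RNA difference on the log2 scale used below (Nkx6-2), gains spread over most of a long locus (Pax6) and the highest RNA level (Six4). They are the RefSeq promoters of the GRCm38.p6 build, 250 bases before to 50 bases after a gene start, written 5′ to 3′ on the gene's strand, with each CG pair, the site that is methylated, in capitals. The coordinates are of that build and cannot be set against the mm9 coordinates of the deposited files used everywhere else. For Pax6 and Six4, which have several starts in the table, 1 start is shown.
Nkx2-1 (chr12:56536859-56537158, minus strand, 12 CG pairs): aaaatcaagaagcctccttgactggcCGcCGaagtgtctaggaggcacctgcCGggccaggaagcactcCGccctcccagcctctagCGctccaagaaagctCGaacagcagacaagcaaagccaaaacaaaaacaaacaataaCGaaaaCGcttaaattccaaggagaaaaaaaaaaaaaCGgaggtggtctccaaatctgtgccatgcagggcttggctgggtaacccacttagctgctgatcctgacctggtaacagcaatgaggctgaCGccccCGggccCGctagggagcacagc
Nkx6-2 (chr7:139582748-139583047, minus strand, 32 CG pairs): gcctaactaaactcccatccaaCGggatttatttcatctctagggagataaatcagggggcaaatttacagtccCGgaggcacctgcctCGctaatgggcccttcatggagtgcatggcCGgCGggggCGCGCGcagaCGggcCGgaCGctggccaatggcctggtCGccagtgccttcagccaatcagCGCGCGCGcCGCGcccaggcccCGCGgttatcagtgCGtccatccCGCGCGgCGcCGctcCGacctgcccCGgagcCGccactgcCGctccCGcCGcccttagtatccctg
Pax6 (chr2:105668646-105668945, plus strand, 18 CG pairs): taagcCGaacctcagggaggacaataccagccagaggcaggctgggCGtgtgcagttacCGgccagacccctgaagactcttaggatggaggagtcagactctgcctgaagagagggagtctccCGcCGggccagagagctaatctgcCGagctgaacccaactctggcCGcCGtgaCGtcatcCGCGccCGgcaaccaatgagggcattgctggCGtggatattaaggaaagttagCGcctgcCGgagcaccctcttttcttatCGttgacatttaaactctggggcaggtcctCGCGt
Six4 (chr12:73113196-73113495, minus strand, 16 CG pairs): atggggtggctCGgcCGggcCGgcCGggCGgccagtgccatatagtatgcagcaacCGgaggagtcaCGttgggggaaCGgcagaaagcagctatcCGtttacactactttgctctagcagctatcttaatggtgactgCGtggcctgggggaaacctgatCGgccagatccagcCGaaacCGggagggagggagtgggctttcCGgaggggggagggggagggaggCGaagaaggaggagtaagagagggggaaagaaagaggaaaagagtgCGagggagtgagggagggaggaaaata
The table held 42 promoters of 34 members, with a median of 17 CG pairs in 300 bases against 7 over its 32851 promoters. At least 10 CG pairs were present in 88.1% of the members' promoters and in 43.5% of all promoters. CG reads the same on both strands, so each pair was counted once.

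The bisulfite files listed the same 14323377 CpGs at a coverage of at least 5 reads in each library, with medians of 8 reads in WT and 10 in TetTKO and totals of 132794183 and 150132176 read calls. Over all these CpGs mean methylation was 69.5% in WT and 65.0% in TetTKO, so the genome as a whole was lower in TetTKO. Both RNA libraries carried the 10 pluripotency markers examined, at 18.1 to 3211 FPKM (sequenced fragments scaled by transcript length and library size) in WT and 16.3 to 3344 in TetTKO. The summed FPKM of 9 neural markers was 63.2 in WT and 34.7 in TetTKO, nearly all of it Tubb3, a neuronal tubulin, at 61.1 and 32.4. Neurod1, a neuronal differentiation factor, was the other neural marker above 1 FPKM, at 1.21 and 1.73, and the rest were under 1 FPKM in both. Mesoderm markers summed to 2.59 and 4.42, and endoderm markers to 2.45 and 7.21. Tet1 was listed at 15.06 FPKM in WT and 4.36 in TetTKO, Tet2 at 14.86 and 4.13, and Tet3 at 0.32 and 0.27, although CRISPR mutations need not remove a transcript. WT coverage of chromosome 6 stood at 1.34 times the median chromosome against 0.982 in TetTKO, which touches 3 members (Dlx5, Dlx6 and Pax4), all at 0.02 FPKM or under in both libraries.

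Most members were silent or nearly so in both libraries. FPKM was under 1 in both for 43 of the 48 genes, under 0.1 in both for 28, and 0 in both for 7 (Dlx1, Nkx2-2, Nkx2-6, Pax2, Pax4, Pax5 and Six3). Of all 22492 genes, 10984 reached 1 FPKM in either library and 3999 were at 0 in both, so values of 0 were not particular to the members. The 5 members that reached 1 FPKM in either library were Nkx6-2, Six4, Pax6, Nkx2-9 and Nkx6-3. FPKM summed over all 48 was 25.9 in WT and 21.0 in TetTKO, and Nkx6-2 and Six4 supplied most of both sums. The number of reads behind an FPKM is not given in the files, so its counting error is unknown.

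Among the Nkx genes, Nkx6-2, which acts in ventral spinal cord patterning and in oligodendrocytes, stood at 8.18 FPKM in WT and 2.24 in TetTKO. This was 3.65-fold lower in TetTKO, or -1.50 on the log2(FPKM + 1) scale. Nkx6-3, known from the stomach antrum, stood at 1.60 FPKM in WT and 0.18 in TetTKO (-1.14 on the log2(FPKM + 1) scale). Its plain ratio of WT to TetTKO, 8.89, exceeded that of Nkx6-2. It reached the 1 FPKM minimum through WT alone, so a large difference was built into its selection. Nkx2-9, a floor plate and ventral neural tube factor, was nearly level, at 1.96 and 2.18 FPKM (0.10). The other 10 Nkx genes, among them the cardiac regulator Nkx2-5 (0.03 and 0.25 FPKM) and the lung and thyroid regulator Nkx2-1 (0.02 and 0.02), were under 1 FPKM in both.

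Of the Pax genes, Pax6, a regulator of eye, forebrain and pancreas, was listed at 2.63 FPKM in WT and 1.32 in TetTKO. The plain ratio was 1.99, and the difference on the log2(FPKM + 1) scale was -0.65, short of the 2-fold mark on that scale. Pax8, known from thyroid and kidney, followed at 0.63 and 0.27 FPKM, and the other 7 Pax genes were at 0.07 or under in both. Of the sine oculis-related genes, Six4, which acts in muscle precursors, was the most abundant member in TetTKO, at 10.09 FPKM against 6.82 in WT (0.50 on the log2(FPKM + 1) scale). Six5 stood at 0.87 and 0.33 FPKM. Of the Lhx genes, Lhx6, a regulator of cortical interneurons, was the highest at 0.82 and 0.73 FPKM. Of the Irx genes, Irx2 was the highest at 0.45 and 0.70 FPKM, and 5 of the 6 Irx genes had the higher value in TetTKO, all under 1 FPKM. Among all 22492 genes, 9972 had the higher value in TetTKO and 8058 in WT. No Dlx gene, a family known from forebrain, jaw and limb, exceeded 0.1 FPKM in either library.

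By the mark used for all genes (at least 1 FPKM in either library and a difference of at least 1 on the log2(FPKM + 1) scale), 0 members were higher and 2 of the 5 measurable members, Nkx6-2 and Nkx6-3, were lower in TetTKO. Over all 10984 genes that reached 1 FPKM, 1.77% were higher and 0.847% lower. With 5 measurable members these shares cannot be compared with any weight, and with 5 in place of 1 added to FPKM 0 members were 2-fold lower. In RNA from a whole culture, fewer cells that express a gene and less RNA per cell cannot be told apart. Without the minimum, 24 members had the higher FPKM in TetTKO, 11 in WT and 13 were equal. Of all 22492 genes, 9972 had the higher FPKM in TetTKO, 8058 in WT and 4462 were equal.

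**Figure D1:**
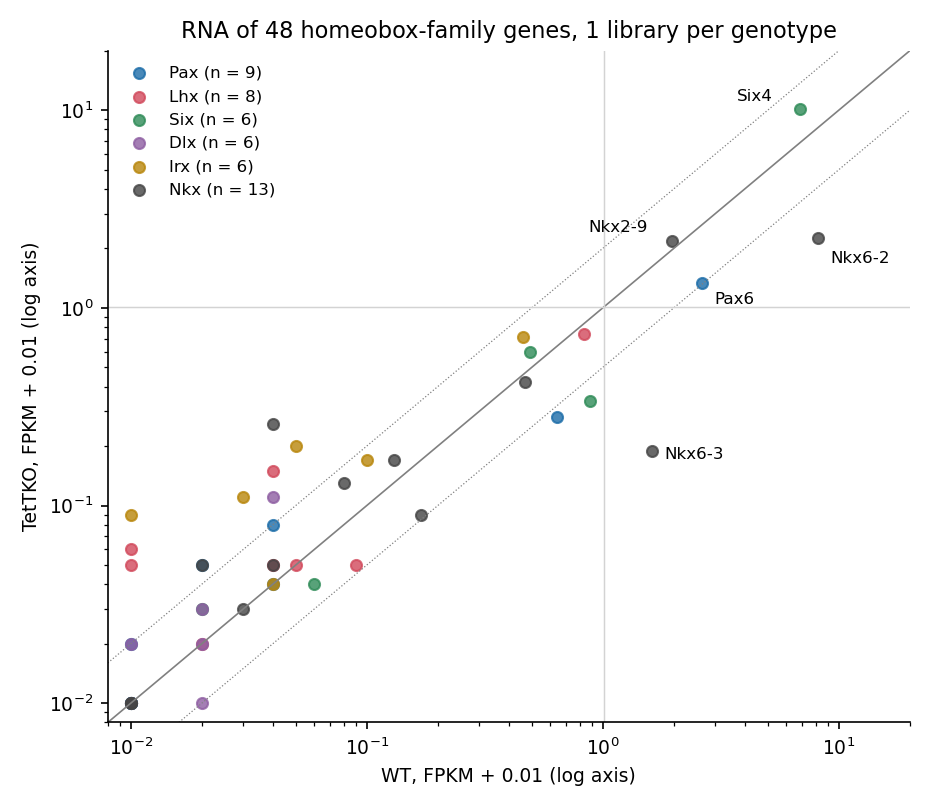
FPKM of the 48 members in the TetTKO library (vertical) against the WT library (horizontal), both on log axes after adding 0.01, with 1 point per gene coloured by family; the solid line marks equality, the dotted lines 2-fold, and the grey lines 1 FPKM. Only 5 genes pass 1 FPKM in either library, with Nkx6-2 (8.18 and 2.24) and Nkx6-3 (1.60 and 0.18) farthest under the line and Six4 (6.82 and 10.09) above it.

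DNA methylation gave a value for every member. Over the annotated interval of each gene, taken as the mean over its CpGs (at least 10 in each of the 48), the median was 16.4% in WT and 26.0% in TetTKO. Methylation was higher in TetTKO for 43 members and lower for 5, with a median difference of 4.54 percentage points. Over the 20459 genes with at least 10 CpGs the median difference was -2.91 points, from 64.5% to 61.5%, with 6411 genes higher and 14035 lower.

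The members differed among themselves by family and by starting level. All 8 Lhx, 6 Dlx and 6 Irx intervals were higher in TetTKO, by 0.95 to 8.73, 2.85 to 11.2 and 2.95 to 8.20 points. The 6 intervals of the sine oculis-related genes were all higher too, by up to 8.74 points at Six3. Among Nkx genes 12 of 13 were higher. Pax intervals, which include the longest ones, were mixed, with 5 higher and 4 lower. Pax1, a regulator of vertebrae and thymus, had the largest gain of any member, from 23.0% to 38.9%, and Pax6 went from 17.8% to 30.4%. Pax4, an islet cell regulator whose interval was already 79.4% methylated in WT, had the largest loss, to 69.6%; it lies on chromosome 6. The other Pax intervals that were lower, Pax2, Pax3 and Pax5, all started above 50% in WT (57.6%, 65.9% and 65.6%) and differed by -0.90, -2.28 and -1.61 points.

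Each interval has an end at its lower and its higher coordinate, and an end here covers the outer 1000 bp next to it and the first 500 bp within. Of the 96 ends, 79 held at least 10 CpGs. TetTKO was at least 10 points higher at 16 of these ends, 1 end in each of 16 members, and at least 10 points lower at 2 ends. This was 20.3% of the members' ends, against 10.1% of 30912 ends of all genes gaining and 10.7% losing by the same mark. Read calls at the members' ends numbered 58 to 954 in a library. With CpGs of at least 10 reads in each library, 14 ends remained, of which 3 gained and 1 lost.

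The 10 ends with the largest difference in either direction lay at 10 members. Nkx2-1 led, at its higher-coordinate end on chromosome 12 (chr12:57637395-57638895, mm9), which was at 7.18% in WT and 36.5% in TetTKO over 43 CpGs. RefSeq places this gene on the minus strand, so this is the end that holds its start, on the side of the first promoter printed above. Pooled reads gave 7.97% (exact 95% binomial interval 5.06 to 11.8) in WT and 34.5% (29.7 to 39.4) in TetTKO, intervals that cover counting error only. Nkx6-2 came next, at its lower-coordinate end on chromosome 7 (chr7:146764274-146765774), with 23.4% in WT and 50.7% in TetTKO over 40 CpGs. This is the far end of the gene. Its start end, which holds 88 CpGs and lies on the side of the CG-rich promoter printed above, was at 8.65% and 9.83%.

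Far ends made up most of the rest. Pax2, a kidney and midbrain regulator, went from 24.1% to 51.1% at its far end, the forebrain and eye regulator Six3 from 27.2% to 51.1%, and the kidney progenitor regulator Six2 from 14.3% to 38.1%. At Nkx6-3, for which the promoter table gave no strand, the lower-coordinate end went from 44.5% to 65.0%. Pax8 gained at its start end, from 38.3% to 56.6% over 12 CpGs. The far ends of Dlx1, a forebrain interneuron regulator, and Lhx3, a pituitary and motor neuron regulator, went from 24.2% to 39.8% and from 61.8% to 77.3%. Pax7, a muscle stem cell and neural crest regulator, showed the opposite at its far end, with 91.2% in WT and 72.5% in TetTKO. The other end that lost was the lower-coordinate end of Dlx4, from 80.5% to 69.5%. Pax6 also gained at its start end, which was at 7.31% in WT and 21.1% in TetTKO.

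**Figure D2:**
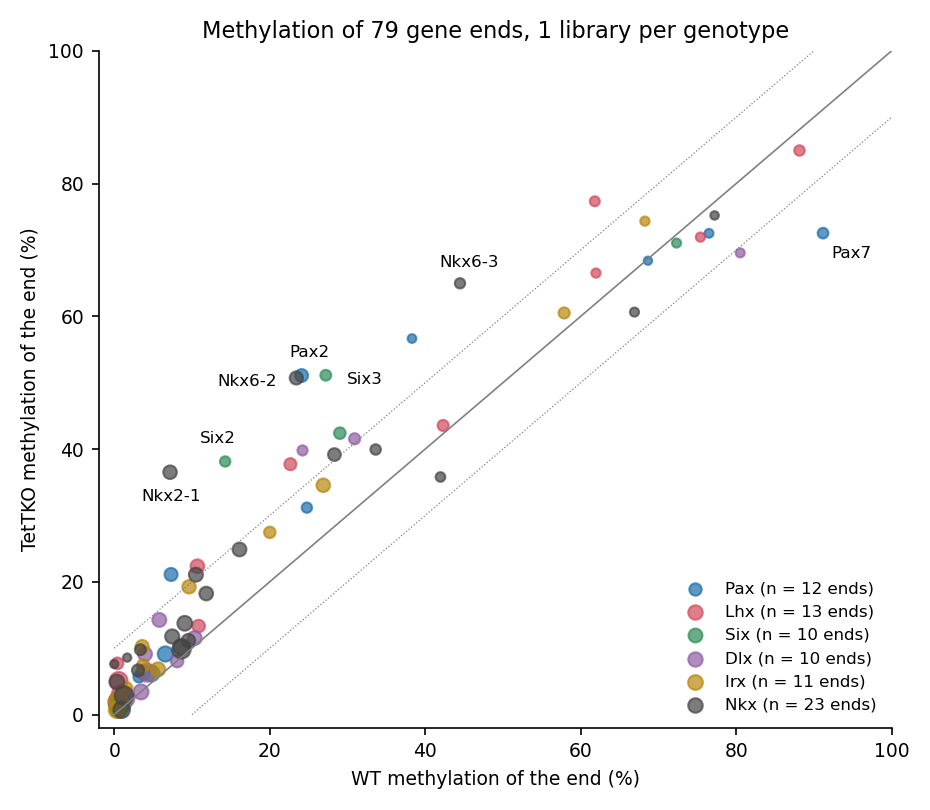
Methylation of the 79 member ends with at least 10 CpGs, TetTKO (vertical, %) against WT (horizontal, %), coloured by family, with point area growing with the number of CpGs; the solid line marks equality and the dotted lines 10 percentage points. Of the ends whose mean over both libraries is 10% to 50%, 27 of 28 sit above the line (4566 of 5398 over all genes). Highest over it are Nkx2-1 (7.18% and 36.5%) and Nkx6-2 (23.4% and 50.7%). The CpG-rich ends lie near 0 in both, and Pax7 (91.2% and 72.5%) lies under the line.

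The gains were also read by the level of methylation shared by both libraries. Among ends whose mean over both libraries was under 10%, 0 of 37 gained 10 points, near the 0.721% of such ends of all genes. A low mean over both libraries limits how far they can differ, so this count was in part set by the class. Of the 37, 34 were higher in TetTKO, with a median difference of 1.78 points. Over all genes 8897 of 10961 such ends were higher, with a median difference of 0.88 points. Among ends between 10% and 50%, 27 of 28 were higher, the median difference was 10.1 points and 14 gained at least 10. Over all genes, 4566 of 5398 ends of that class were higher, their median difference was 6.46 points, and 34.2% of them gained at least 10. Among the 14 member ends at 50% and over, 5 were higher and the median difference was -1.66 points. Over all genes 4422 of 14553 such ends were higher, with a median difference of -4.40 points.

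CpG number divided the ends in a similar way. None of the 21 member ends with at least 50 CpGs gained 10 points (1.27% of such ends of all genes did), and their median levels were 0.95% and 2.86%. Of the 44 ends with 20 to 49 CpGs, 14 did, or 31.8% against 17.2% of such ends of all genes. The promoter table gave a strand for 34 members. By that strand, 4 of 33 start ends (12.1%) and 8 of 25 far ends (32.0%) gained at least 10 points, against 8.24% and 11.8% over all genes. The median differences were 1.78 points at start ends and 5.15 at far ends, against 0.91 and -2.77 over all genes. Sorting ends by strand, level or CpG number was chosen after the data had been seen.

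In 1 kb bins from 10 kb outside the interval ends to 10 kb inside, mean methylation of the members was lowest in the first bin inside the end, at 25.4% in WT and 29.2% in TetTKO. TetTKO was higher by 8.03 points in the bin from 1 to 2 kb outside, by 6.79 from 2 to 3 kb and by 4.49 from 3 to 4 kb. From 6 kb outwards the bins differed by -1.34 to 0.19 points. Over all genes the same outside bins differed by -1.91, -3.08 and -3.27 points, and the bins on either side of the end by -0.22 and -0.12. The members' difference lay above that of all genes in every bin. Inside the intervals the bins from 3 to 5 kb, which rest on 27 and 23 bins of the longer genes, differed by 7.13 and 7.67 points.

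**Figure D3:**
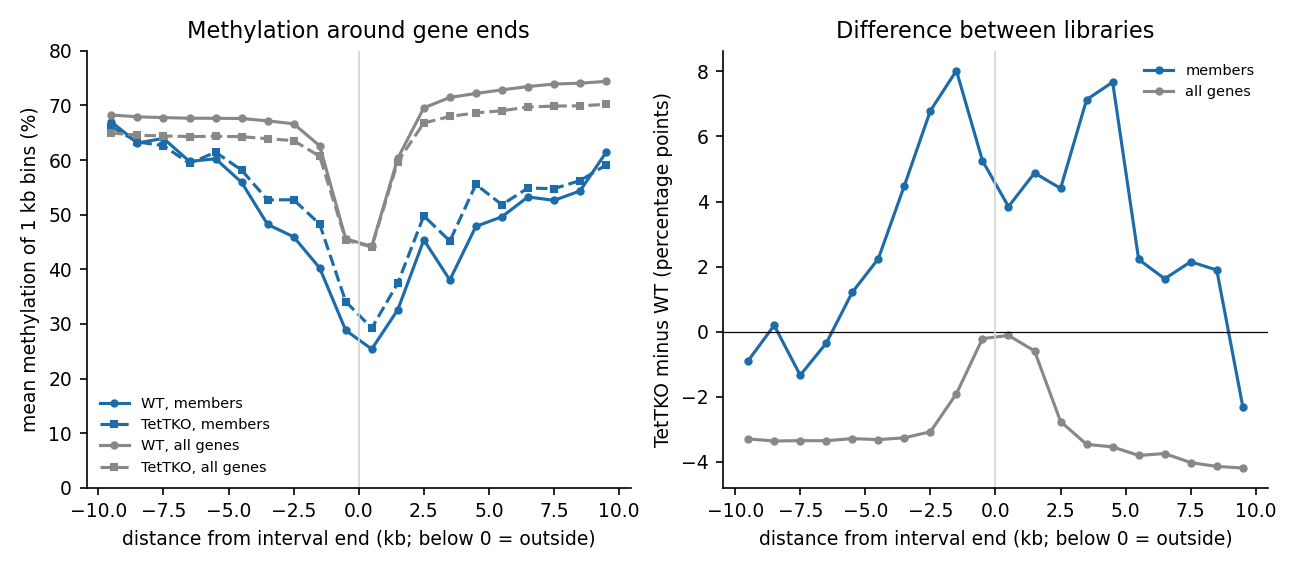
Mean methylation (left, %) and its TetTKO minus WT difference (right, percentage points) in 1 kb bins by distance from the interval ends in kb, negative outside the gene, for the 48 members (blue) and all genes (grey), WT solid and TetTKO dashed on the left. The members' difference reaches 8.03 points in the bin 1 to 2 kb outside, where all genes are at -1.91.

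The surroundings were also divided into fixed windows of 1 kb with at least 5 CpGs. Within 10 kb of the members and inside them lay 1488 such windows, each counted once, of which 52 gained and 2 lost at least 30 points. This was 3.49% gained, against 0.67% of 1223928 windows in the genome and 0.795% of those within 10 kb of any gene; of all windows 0.638% lost as much, and of those within 10 kb of any gene 0.517%. In the 52 windows mean methylation was 24.6% in WT and 60.2% in TetTKO, and their WT levels ran from 3.23% to 50.2%. At 10 reads per CpG, 11 of 273 windows gained (4.03%, against 1.23% of all). The 2 windows that lost lay within Lhx4 (87.9% and 57.9%, 6 CpGs) and Pax5 (78.8% and 46.8%, 7 CpGs). Of all the members' windows, small differences included, 53.1% were higher in TetTKO, against 27.8% in the genome.

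Of the 48 members, 25 had at least 1 of the 52 windows within 10 kb, and the Dlx5 and Dlx6 loci share 1. How many of all genes had such a window was not counted. Of the windows, 19 lay inside intervals, 18 before the start coordinate and 15 after the end coordinate. Nkx6-2 had 6, Nkx6-3, Pax2, Pax5 and Pax7 had 4 each, and Nkx2-1 and Nkx3-2 had 3 each. For Pax5 and Pax7 this is out of 175 and 100 windows, and for Nkx6-2 out of 20. Most of these 25 members had too little RNA in WT for a lower level to be seen, so the windows could not be set against RNA over the members.

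Among windows of at least 20 CpGs, 10 of 302 gained 30 points, or 3.31% against 1.52% of all such windows, and these 10 are the windows with the largest differences of that density. A window starting 105 bp after the Nkx2-1 interval (chr12:57638000-57638999) went from 15.3% to 67.8% over 20 CpGs. Around Nkx6-2, 3 windows went from 17.6% to 64.0% (chr7:146762000-146762999), from 31.3% to 66.8% (chr7:146764000-146764999) and from 14.5% to 47.6% (chr7:146771000-146771999). A window beyond the end coordinate of Lhx8, a regulator of forebrain cholinergic neurons and oocytes, went from 20.2% to 59.1% over 35 CpGs. One beyond Irx2 went from 5.89% to 43.0%, and one before Nkx3-2, a skeletal regulator, from 14.2% to 48.9%. The remaining 3 lay inside Pax1 (18.9% and 52.7%), after Nkx6-3 (14.9% and 48.1%) and across the end of Pax2 (21.4% and 53.0%).

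**Figure D4:**
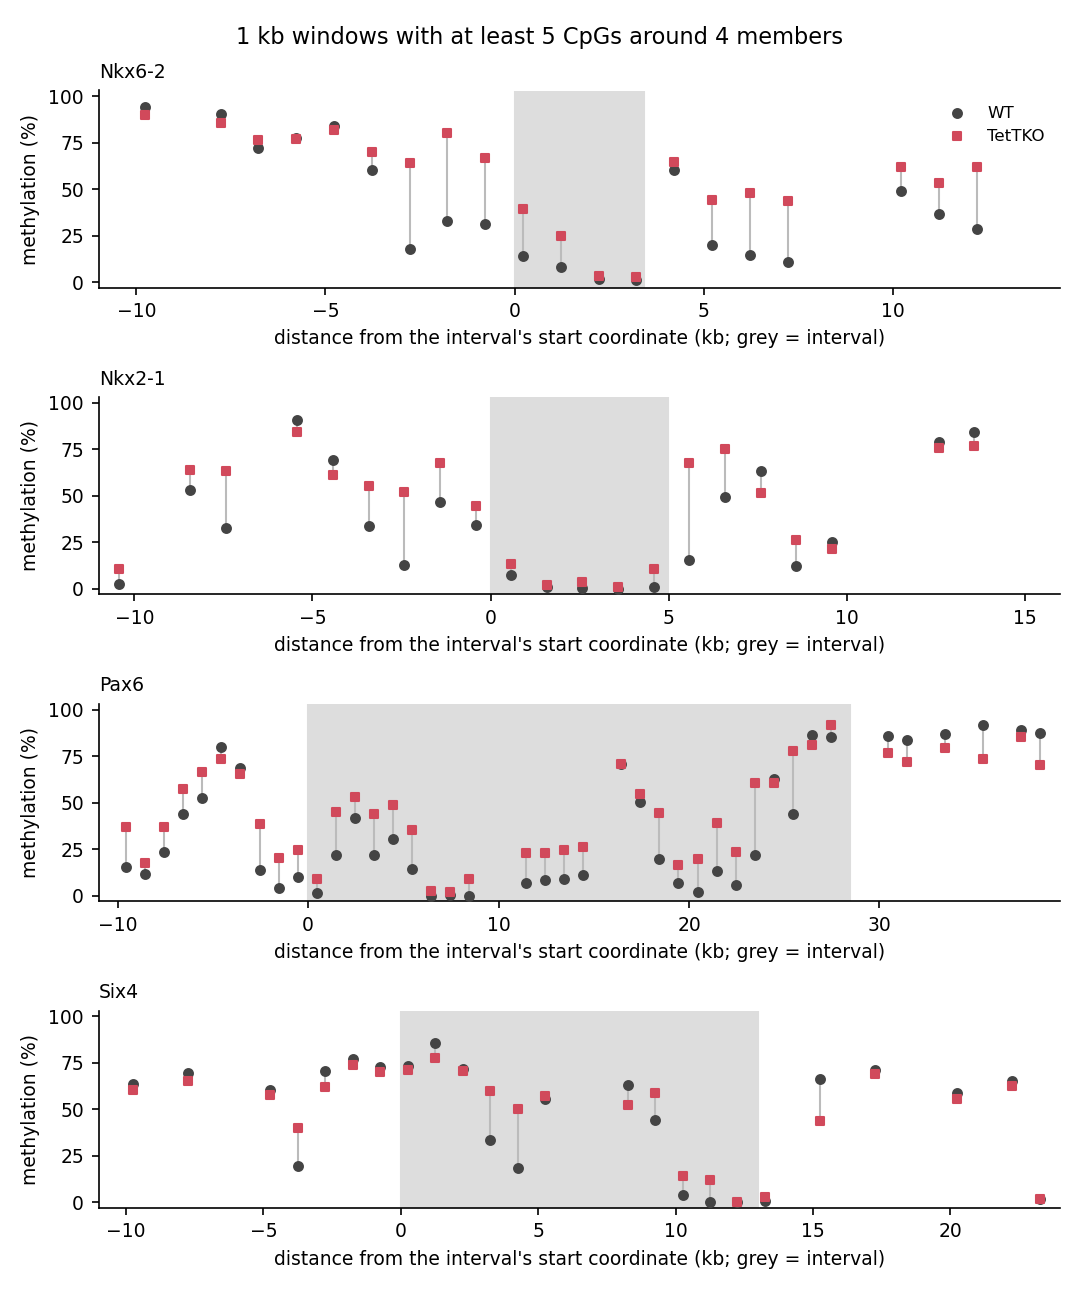
Methylation (%) in WT (grey circles) and TetTKO (red squares) of 1 kb windows with at least 5 CpGs, by distance in kb of the window's centre from the start coordinate of Nkx6-2, Nkx2-1, Pax6 and Six4, with the interval shaded. TetTKO is higher in 16 of 20, 15 of 21, 31 of 41 and 9 of 24 windows; the widest gaps are 47.5, 52.5, 39.0 and 31.8 points.

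The 4 loci show how the windows were arranged. At Nkx6-2, TetTKO was higher in 16 of 20 windows and by at least 10 points in 11, on both sides of the gene and inside it. At Nkx2-1, 15 of 21 windows were higher and 9 by at least 10 points, nearly all outside the interval, whose own level was 1.37% in WT and 5.03% in TetTKO. At Pax6, 31 of 41 windows were higher and 22 by at least 10 points, most of them inside the interval. At Six4, where RNA was higher in TetTKO, 9 of 24 windows were higher and 15 lower, and the start end was at 0.32% and 1.23%.

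Windows of intermediate methylation were common around the members. Those with a mean over both libraries between 10% and 50% made up 354 of the 1488, or 23.8%, against 6.50% of windows in the genome. In this class 321 of the members' 354 windows were higher in TetTKO, with means of 21.7% and 36.2%, which lie 14.5 points apart. Over the genome 59656 of the 79519 windows of the class were higher in TetTKO, and the class differed by 9.02 points. Of the class, 10.5% of the members' windows and 6.46% of all windows gained 30 points. In windows of 80% and over the members differed by -6.31 points and the genome by -6.43. Both the share of windows in the 10% to 50% class and the difference within that class were larger near members. Windows that lay 2 windows from a gained one were also read, leaving out those that themselves gained or lost 30 points. Near members 46 of these 76 windows were higher in TetTKO, with a mean difference of 2.02 points. Over the genome 6079 of 12050 were higher, with a mean difference of 1.06 points.

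Low-methylated domains were defined as runs of at least 3 windows whose mean over both libraries was at most 15%, a definition that treats the libraries alike. Of 2749 such domains, 33 lay within 10 kb of 28 members and overlapped 26 of them. At least 5 kb long were 7 of the 33 (21.2%), against 12.7% of all. Inside the members' domains mean methylation was 3.06% in WT and 8.50% in TetTKO, and over all domains 2.84% and 6.06%. TetTKO was higher inside 32 of the members' 33 domains. How many of all 2749 domains were higher inside was not counted. Of windows whose mean was under 10%, 154 of 166 near members and 20350 of 25186 in the genome were higher in TetTKO.

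The difference was wider just outside, but the definition of a domain sets part of this contrast. A window inside must have a low mean over both libraries, which limits how far they can differ there. A window low in WT that gained strongly could exceed that limit and be counted at the edge. How much of the contrast comes from this was not tested. The same definition holds for all domains, with which the edges are compared below. In the 2 windows next to each edge, 110 windows in all, WT stood at 30.5% and TetTKO at 41.4% on average. TetTKO was thus 10.9 points higher, and 88 of the 110 windows had the higher value in it. Over all domains the difference was 4.67 points, with 5335 of 8511 windows higher. Over all domains of at least 5 kb it was 8.39 points, and over the members' 7 domains of that length 11.5. Averaged per domain, 28 of 33 edges were higher in TetTKO, from 28.6 points at a Pax7 domain down to -6.15 at the Six4 domain. Among all 2749 domains, 1812 were higher at their edges and 876 lower. At 10 reads per CpG only 1 edge window remained, so the edge difference could not be read at that depth. With distance the members' difference went from 11.2 points in the first window to 7.90 in the third and 1.30 in the sixth, the lowest, and was 1.84 to 3.28 in the windows from 7 to 10 kb. Over all domains it was 7.05 in the first window and 2.18 in the second.

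A longest domain of each family is described here, 1 where several had the same length. The ties were those of Dlx2 with Dlx6, of Lhx4 and Lhx5 with Lhx1, and of Six3 and Six4 with Six5, whose edges differed by -3.65, 13.3, 7.21, 17.2 and -6.15 points. The Pax2 domain of 6 kb was at 2.85% in WT and 8.29% in TetTKO inside and at 24.0% and 37.2% at its edges. For the Nkx2-3 domain of 6 kb, at a gene needed for spleen development, the values were 4.08% and 8.34% inside and 26.0% and 42.3% at the edges. The Irx5 domain, also of 6 kb, had 3.52% and 7.14% inside and 40.6% and 49.3% at the edges. The Dlx6 domain of 5 kb, on chromosome 6, had 3.26% and 12.7% inside and 35.6% and 41.9% at the edges. Of the domains of 4 kb, that of Lhx1, a head organiser and kidney regulator, had edges at 27.9% and 44.6%, and that of Six5 had edges at 56.1% and 58.0%.

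**Figure D5:**
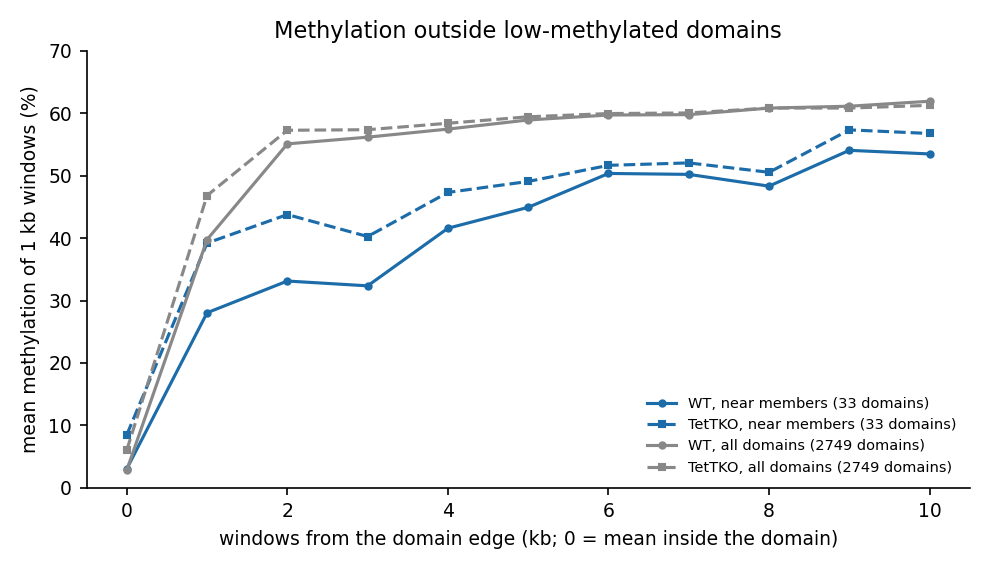
Mean methylation (%) of 1 kb windows by distance in kb outside low-methylated domains, with the mean inside the domain drawn at 0, for the 33 domains near members (blue) and all 2749 domains (grey), WT solid and TetTKO dashed. Near members the lines are 11.2 points apart in the first window and 1.30 apart in the sixth, while those of all domains nearly meet from the second window on.

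Some members are neighbours and share windows. Gaps of under 50 kb separated Dlx1 from Dlx2 (9427 bp), Dlx6 from Dlx5 (9834 bp) and Dlx3 from Dlx4 (15155 bp), so these pairs are not independent. Dlx1 went from 8.09% to 15.4% over its interval and Dlx2 from 2.95% to 5.80%, and the edges of the domain that overlaps Dlx2 were at 29.5% in WT and 25.9% in TetTKO.

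The Hox and Forkhead genes, other developmental regulators, were set beside the members by the same measures. The 39 Hox intervals had a median difference of 6.04 points, 15 of 68 Hox ends gained at least 10 points and 28 of 447 Hox windows (6.26%) gained 30. The 44 Forkhead intervals had a median difference of 1.37 points, 10 of 74 ends gained and 31 of 2231 windows (1.39%) gained 30. The members thus lay between these groups in intervals and windows, with no test of the difference possible. The minimum of 1 FPKM was met by 0 of the Hox genes, 5 of the 48 members and 16 of the Forkhead genes.

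Genes that encode partners of the members' proteins were mostly level in RNA. A list of 13 genes held LIM cofactors, LIM-only genes and Isl1, Isl2, Lmx1a and Lmx1b, which are LIM-homeobox genes like Lhx and not partners. Of the 13, 4 reached 1 FPKM and 1, Lmo4, was at least 2-fold higher in TetTKO by the mark above. Lmo4, whose LIM-only product can compete with Lhx proteins for cofactors, stood at 4.84 and 11.63 FPKM. Of the TALE partners 9 of 11 reached 1 FPKM, of the Groucho and TLE corepressors 5 of 6, and of the Eya and Dach genes 1 of 6, and 0 passed the mark. Polycomb complex genes, 18 of 19 of which reached 1 FPKM, summed to 679.5 FPKM in WT and 672 in TetTKO, with 0 past the mark.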

How the data were processed

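Per the labels' protocols, genomic DNA for WGBS was sheared to about 350 bp and sequenced as read pairs of 110 bp, and RNA was depleted of ribosomal RNA and sequenced as single 50 bp reads. The submitters' processing notes name Trim Galore, Bismark 0.7.9, Bowtie, SAMtools, TopHat2 2.0.2, Cufflinks 2.0.2 and mm9. The deposited methylation files give for each CpG the fraction of methylated reads, the count of methylated reads and the count of all reads. The deposited expression files give FPKM per gene, with no read counts, so RNA depth is unknown.

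The 22892 rows of each expression file were reduced to 22492 symbols by summing FPKM (230 symbols had several rows, each with the interval of its highest row). Differences were taken on log2(FPKM + 1). Methylation of a region is the mean of its CpG fractions; exact 95% Clopper-Pearson intervals of pooled read calls cover counting error only, since PCR copies are not independent molecules. Low-methylated domains could bridge 1 window without enough CpGs. Calls and thresholds are those given in the text. With 1 library per group no test across samples exists. Python 3.11.15, NumPy 2.4.6, pandas 2.3.3, SciPy 1.17.1 and matplotlib 3.10.9 were used, and the calls were tested on simulated data. The named genes were every member of at least 1 FPKM, the 10 ends and 10 windows (of at least 20 CpGs) with the largest differences, the longest domain per family and partner genes past the 2-fold mark; members named beyond these were chosen after their values were seen. The members and gene lists were chosen with earlier results of these data known. The mm9 genome was not used here. Single values of some genes are not reported here.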

Additional observations from a re-analysis of the deposited data

How the results depend on the processing

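Of 60 alternatives to the 9 main results, 33 left the value within its tolerance, 26 moved it and 1 reversed it. The median log2 difference of the 5 members of at least 1 FPKM, -0.65, was -0.94 with 0.1 added to FPKM, -0.27 with 5 added, -0.64 centred on all measured genes and 0.0070, the reverse sign, over all 48 members without a minimum, most of which are near 0. With 5 added, 0 members were at least 2-fold lower in place of 2. At a coverage of at least 10 in place of 5, 14 ends and 273 windows remained: 3 ends gained and 1 lost, 11 windows gained and 1 lost, and the edge difference, 2.48 points, rested on 1 window. The shares gaining were then 21.4% of member ends (8.44% of all) and 4.03% of member windows (1.23% of all). From pooled read calls, 1 window lost and the edge difference was 11.8 points. Centred on the median of all features, the interval difference was 7.45 points and the edge difference 6.40. With that centring 95 of the 1488 windows gained (1.43% of all windows did) and 0 lost. Ends reaching 500 bp or 2000 bp outside gave 1 and 4 losing ends, and ends of at least 20 CpGs gave 1. At 20 points, 6 of the 79 ends gained (2.55% of all ends did) and 0 lost. Of 863 windows of at least 10 CpGs, 29 gained (3.36%) and 0 lost. Of all 433074 such windows, 4588 gained (1.06%) and 348 lost. At 20 points, 143 of the 1488 windows gained and 56 lost, against 2.40% and 6.41% of all windows. The edge difference was 9.94 points with domains set from TetTKO and 9.34 with domains at 10%. The cause was not tested beyond the smaller numbers of ends and windows named. No paired analysis was possible because each group had 1 library.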

Other observations

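A list of 54 other homeobox genes outside Hox and these families, chosen with earlier results of these data known, was read the same way. Of these, 6 reached 1 FPKM in either library. Otx2, a regulator of the anterior epiblast and forebrain, was the 1 gene past the 2-fold mark, at 3.98 FPKM in WT and 13.97 in TetTKO. Gbx2, which acts at the midbrain and hindbrain boundary and is also expressed in ES cells, stood at 25.51 and 17.08 FPKM, and En2, a midbrain and hindbrain regulator, at 2.43 and 2.05. Of 97 ends of this list with at least 10 CpGs, 20 gained at least 10 points in TetTKO (20.6%) and 5 lost as much, with a median difference of 3.96 points. The share gaining was close to the 20.3% of the 48 members, and no test of the difference exists with 1 library per genotype.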
